A study of Mus musculus with 6 samples.

Results

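The Trim genes encode the tripartite motif proteins, a large family of mostly RING-type ubiquitin ligases, and they are described here in mouse dendritic cells with and without a Cre transgene that deletes the Hif2α gene. Members were the rows of the deposited count table named Trim followed by a number and at most 1 letter, without the 1 pseudogene row, Trim30e-ps1. This gave 65 Trim genes of 30587 rows, and 41 of the 65 had enough reads for a test, against 13249 rows in all. KO cells came from C57BL/6 mice carrying CD11c-Cre and floxed Hif2α alleles (CD11c-Cre;Hif2αfl/fl, 3 libraries), and WT cells from C57BL/6 mice with the floxed alleles alone (Hif2αfl/fl, 3 libraries). The cells of all 6 libraries were grown from bone marrow and had received 2 agents in turn. The first, for 24 h, was DMOG (dimethyloxalylglycine), which keeps HIF proteins from being broken down by blocking their hydroxylation. The second, for 4 h, was α-galactosylceramide (α-GalCer), a glycolipid that dendritic cells show to natural killer T cells. CD11c-Cre is active in dendritic cells and in other CD11c-expressing cells such as some macrophages. No culture was treated with interferon, and neither agent was varied. Whether libraries 1 to 3 of a genotype are separate mice or cultures is not said in the labels, so the p-values rest on library-to-library spread that may be technical.

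A typical TRIM protein joins a RING domain, which recruits a ubiquitin-conjugating enzyme, to B-box and coiled-coil domains that assemble the protein and to a C-terminal domain that picks the target. Many members bind viral proteins or attach ubiquitin to the sensors and adaptors that switch on type I interferon. A subset is itself induced by interferon, through promoter sequences called interferon-stimulated response elements, whereas other members serve chromatin, the cytoskeleton or protein turnover and are not known for such induction. For this reason the family was split by a list of 18 Trim genes known to be induced by interferon, of which 17 were in the table and 14 had enough reads for a test. The list was written with earlier results of these data known, so the split is no independent evidence of direction.

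Read totals ran from 16826800 to 17884160 in the KO libraries and from 14668641 to 17041448 in the WT libraries. WT library 2 had a read in 25408 rows and KO library 1 in 22275, against 18763 to 19513 in the other libraries; without both, all 13 rises on the interferon list described next were kept and 13 Trim genes rose in all. Epas1, the gene for HIF-2α, had 175, 214 and 198 reads in KO libraries 1 to 3 and 339, 352 and 349 reads in WT libraries 1 to 3, a log2 fold change of -0.98 ± 0.12 (SE; edgeR quasi-likelihood test, Benjamini-Hochberg adjusted p = 3.45e-05). The labels do not name the deleted exons, and the counts cover the whole gene, so the remaining KO reads give no estimate of how many cells escaped deletion. Among 10 dendritic cell markers, 4 rose (Flt3, Zbtb46, Ccr7 and Cd86) and 4 fell (Cd74, H2-Ab1, H2-Eb1 and Irf4), and their summed level was 6254 to 7105 CPM in KO libraries and 7112 to 7396 CPM in WT libraries (CPM, counts per unit of TMM-scaled library size, brought to a common depth). Macrophage markers were also abundant, at a sum of 3355 to 3825 CPM in KO and 3388 to 3640 CPM in WT, with 1 of 6 higher in KO (C5ar1). Of all rows tested, 13.8% rose and 12% fell. The 5 plasmacytoid dendritic cell markers summed to 28.7 to 34.9 CPM in KO and 21.9 to 23.3 CPM in WT, nearly all of it from Tcf4, which rose; Siglech, the defining marker, had 0.0767 CPM in KO and 0.0826 CPM in WT. The 4 mast cell and basophil markers summed to 2.03 to 2.61 CPM in KO and 0.546 to 0.946 CPM in WT (Mcpt8 rose). Markers of B cells, T cells, NK cells and erythroid cells summed to at most 2.25 CPM in any library, those of fibroblasts to at most 3.84 CPM, and no reads were listed for Ncr1 and Hbb-bs. Neutrophil markers summed to 20.4 to 32 CPM in KO and 20.4 to 30.4 CPM in WT. The part of these shifts in the Trim values was not tested, and in bulk RNA more cells of a type cannot be told apart from more RNA per cell.

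Interferon-induced Trim genes were higher in KO cells and the rest of the family was mostly flat. Of the 41 tested Trim genes, 15 rose in KO (36.6%), against 13.8% of all rows tested, and 4 fell (9.76%), against 12% of all rows (edgeR, adjusted p under 0.05). In all, 19 of 41 Trim genes were called (46.3%), against 25.8% of all rows. On the interferon list, 13 of 14 tested genes rose, with a median log2 fold change of 0.62 (1.53-fold), against -0.01 for the median row of the table. Outside the list, 2 of 27 tested genes rose and 4 fell, with a median of 0.01. No tested gene of the interferon list fell by edgeR, and none had an unadjusted p under 0.05 in that direction by edgeR, DESeq2 or limma-voom (0 each). A gene was called flat if it was not called and its 95% interval lay within 1.5-fold either way: 19 of the 27 genes outside the list were flat (70.4%) and 0 of the 14 on it, against 51.7% of all rows. A rise of at least 1.5-fold was found in 8 of the 41 tested Trim genes, all on the list, against 4.32% of all rows tested. These were 8 of the 15 Trim genes that rose, against 573 of the 1826 rows that rose in the whole table. A fall of at least 1.5-fold was found in 0 of the 4 Trim genes that fell, against 470 of the 1586 rows that fell. Every KO library stood above every WT library in 13 of the 14 tested interferon-list genes and in 17 of all 41 tested Trim genes, against 20.5% of all rows; every KO library stood below in 8 of the 41, against 20% of all rows.

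**Figure D1:**
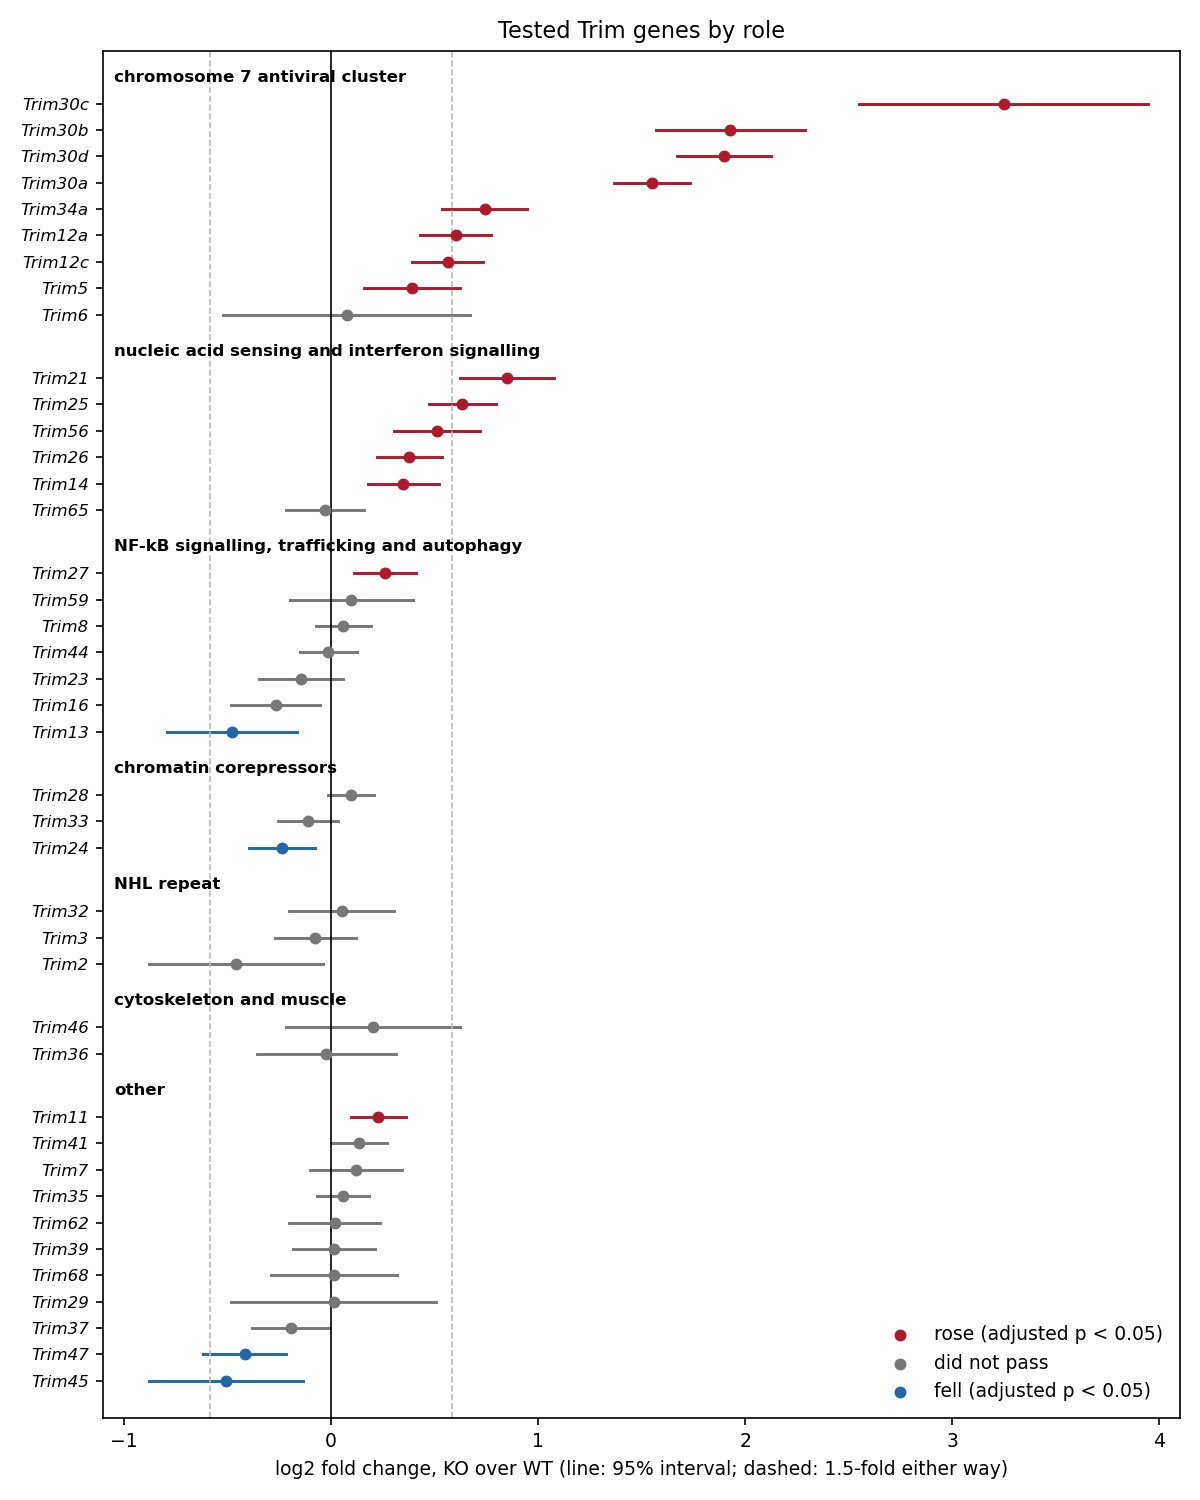
Log2 fold change of each of the 41 tested Trim genes, KO over WT, grouped by known role, with 95% intervals; dashed lines mark 1.5-fold either way. The 4 Trim30 genes lay furthest to the right, at 1.55 to 3.25, and the 4 genes that fell lay between -0.51 and -0.24.

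Promoter sequence is shown for the Trim genes that carry the core of an interferon-stimulated response element, because most of them rose. RefSeq promoters (GRCm38.p6, 250 bases before to 50 after each annotated start) were at hand for 50 of the 65 members. The core, searched as GAAANNGAAA on both strands, was in 3.99% of the 27025 genes with a promoter. It was in 8 of 13 Trim genes that rose and had a promoter (61.5%), in 1 of 18 tested Trim genes that did not rise (5.56%) and in 0 of the 11 flat ones. Among 30 known interferon-stimulated genes, 12 of the 21 with a promoter carried it (57.1%). The stretches below run 5′ to 3′ on each gene's own strand with the core, or 2 overlapping cores, in capitals.
Trim30a, chr7:104465144-104465443, minus strand: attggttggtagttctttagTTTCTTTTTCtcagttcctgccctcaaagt
Trim30d, chr7:104507800-104508099, minus strand: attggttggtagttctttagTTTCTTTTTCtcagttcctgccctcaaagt
Trim5, chr7:104288057-104288356, minus strand: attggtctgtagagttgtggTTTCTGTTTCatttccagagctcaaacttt
Trim12a, chr7:104315446-104315745, minus strand: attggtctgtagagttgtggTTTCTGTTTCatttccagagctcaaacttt
Trim12c, chr7:104353300-104353599, minus strand: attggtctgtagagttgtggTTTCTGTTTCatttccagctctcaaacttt
Trim34a, chr7:104244207-104244506, plus strand: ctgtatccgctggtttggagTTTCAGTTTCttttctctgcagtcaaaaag
Trim21, chr7:102565433-102565732, minus strand: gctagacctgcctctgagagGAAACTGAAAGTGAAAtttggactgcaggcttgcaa
Trim26, chr17:36836896-36837195, plus strand: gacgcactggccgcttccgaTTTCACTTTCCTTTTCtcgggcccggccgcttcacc
Trim2, chr3:84212789-84213088, minus strand: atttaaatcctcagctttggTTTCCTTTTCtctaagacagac
The coordinates are those of the 300-base window that holds each stretch.

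The 50-base stretches shown for Trim30a and Trim30d were identical, as were those of Trim5 and Trim12a, and Trim12c differed from Trim5 at 2 of 50 bases. Across those 2 kinds the likeness was lower, at 27 of 50 bases between Trim30a and Trim12a. The 8 genes that rose and carried the core thus include near-identical copies and are not 8 independent promoters. With the first transcribed base as position 0, the core began at -36 in Trim30a, -41 in Trim30d, -49 in Trim5 and -29 in Trim12c. It began at 10 in Trim12a and in Trim34a, and at 13 and 19 in Trim21. In Trim26 it lay further out, at -160 and -154. Trim2, which did not rise, carried it at 28 in 1 of its annotated starts. Trim30a also carried the core at another annotated start, at 2, in a stretch that matched the one shown at 38 of 50 bases. Trim30b, Trim30c, Trim25, Trim56 and Trim27 rose and had no such letters in this window, and Trim14 and Trim11 had no promoter in the table. In 9 of the 31 tested members with a promoter, Trim30b and Trim27 among them, every RefSeq start lay more than 250 bases from the gene's outermost start in GENCODE M21, which was therefore not searched. The start searched for Trim30b lies 11.2 kb inside the gene. Of 2 other motifs searched on both strands, the gamma-activated site TTCNNNGAA was in 9.55% of all promoters and, among the 13 Trim genes that rose, in Trim30c alone. The sequence ACGTG, the only form of the HIF binding site core that was searched, was in 21.8% of all promoters. It was in 1 of the 13 Trim genes that rose (Trim25) and in 6 of the 18 that did not. No motif match of the response element overlapped one of the gamma-activated site.

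**Figure D2:**
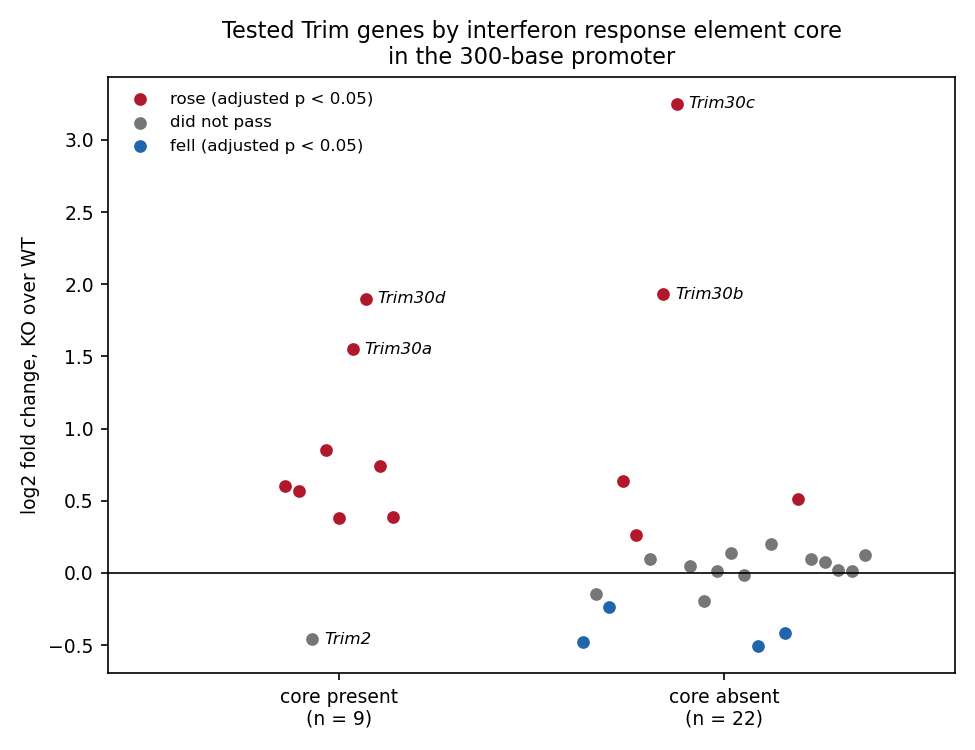
Log2 fold change, KO over WT, of the 31 tested Trim genes with a RefSeq promoter, split by whether the 300-base window holds the response element core; each point is 1 gene, spread sideways for legibility. The 9 genes with the core had a median of 0.60 and ran from -0.46 (Trim2) to 1.90 (Trim30d), and the 22 without it had a median of 0.06 and ran up to 3.25 (Trim30c).

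The largest rises were in the Trim30 genes, a group of rodent genes clustered on chromosome 7 whose best-known member, Trim30a, restrains NF-κB signalling by removing the adaptors TAB2 and TAB3. Trim30a (ENSMUSG00000030921, chr7:104409025-104465193, minus strand, mm10) had 138, 168 and 144 CPM in KO libraries, against 53.8, 45.4 and 54.6 CPM in WT libraries. Trim30d (chr7:104470014-104507849) had 59.0, 70.7 and 54.6 CPM in KO, against 18.2, 15.2 and 15.9 CPM in WT. In both genes every KO library stood above every WT library, and KO library 2 was the highest. The fold change of Trim30a was 2.93 (log2 1.55 ± 0.09, edgeR adjusted p = 2.39e-08) and that of Trim30d was 3.73 (log2 1.90 ± 0.11, edgeR adjusted p = 2.65e-08). Trim30b and Trim30c, neighbours of Trim30a, were sparse in WT cells. Trim30b (chr7:104355382-104369884) had 168, 146 and 153 reads in KO, against 47, 29 and 34 reads in WT. Trim30c (chr7:104382065-104400837) had 86, 151 and 104 reads in KO, against 10, 7 and 15 reads in WT. Neither gene's groups overlapped. Trim30b rose 3.81-fold, with 8.91 ± 0.283 CPM in KO and 2.33 ± 0.451 CPM in WT (SD, n = 3 each; log2 1.93 ± 0.17, edgeR adjusted p = 1.94e-06). Trim30c had the highest fold change in the family, 9.504, at 6.56 ± 2.16 CPM in KO and 0.689 ± 0.297 CPM in WT (SD, n = 3 each; log2 3.25 ± 0.32, edgeR adjusted p = 7.32e-06). Of the 50-base windows of each transcript set, 7.49% in Trim30d and 5.98% in Trim30a also occurred in another gene, chiefly each other, against 0.66% in Trim30c and 0.55% in Trim30b. How the authors treated reads with several alignments is not given in the sources used here, so some reads may have been split among these copies.

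**Figure D3:**
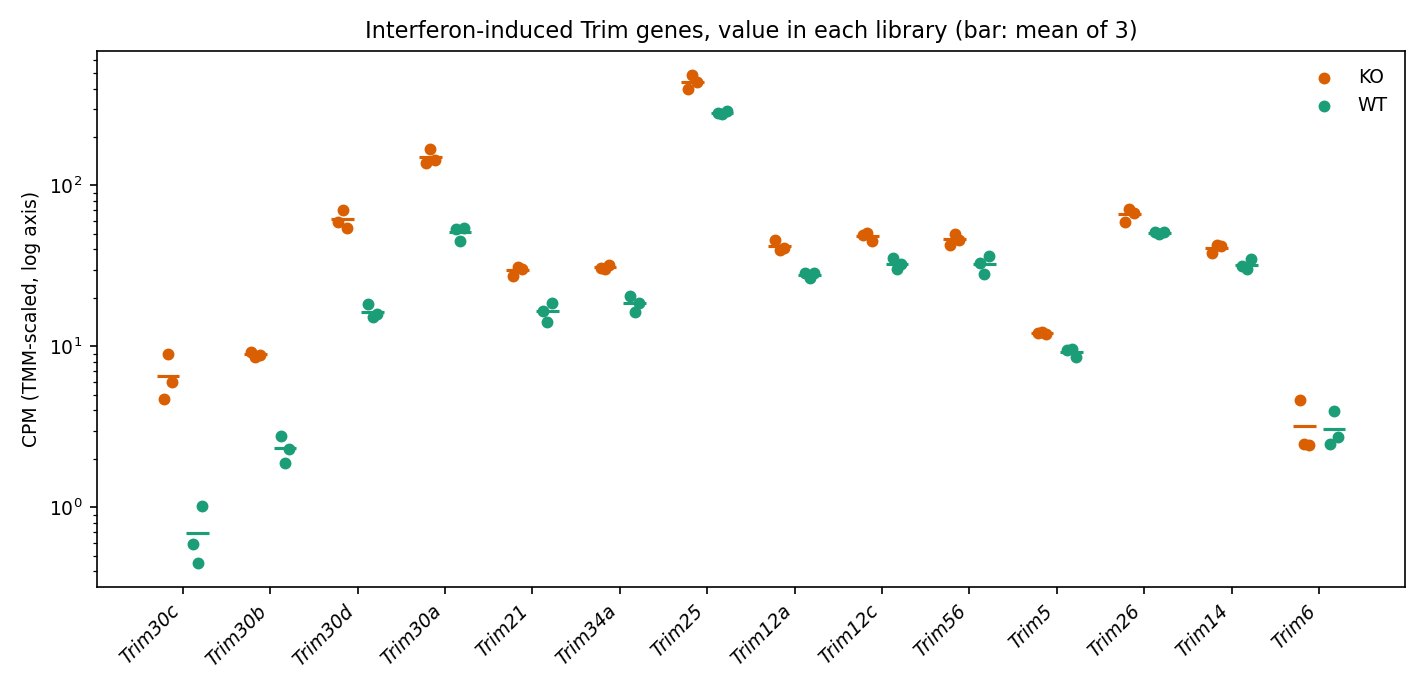
CPM of the 14 tested Trim genes of the interferon list in each library, KO left and WT right of each pair, on a log axis; points are libraries and bars are means of 3. The KO points lie above all WT points in 13 genes, against 20.5% of all rows tested, and Trim6 is the exception.

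The other members of the chromosome 7 cluster include the mouse relatives of primate TRIM5, a restriction factor that binds retroviral capsids, and their rises were smaller. Trim34a (chr7:104244457-104262234, plus strand) had 30.6, 30.1 and 32.2 CPM in KO, against 20.6, 16.3 and 18.5 CPM in WT, a 1.67-fold rise (log2 0.74 ± 0.10, edgeR adjusted p = 7.64e-05). Trim12a (chr7:104299894-104315466) had 45.9, 39.7 and 41.0 CPM in KO, against 28.4, 26.7 and 28.4 CPM in WT, a 1.52-fold rise (log2 0.60 ± 0.08, edgeR adjusted p = 9.82e-05). Trim12c (chr7:104338754-104353362) had 48.9, 50.8 and 45.3 CPM in KO, against 35.5, 30.04 and 32.4 CPM in WT, a 1.48-fold rise (log2 0.56 ± 0.08, edgeR adjusted p = 0.000168). In none of the 3 did the groups overlap. Trim5 (chr7:104263386-104288094) had 12.1, 12.3 and 11.9 CPM in KO, against 9.46, 9.58 and 8.59 CPM in WT, again without overlap. Its 1.31-fold rise passed (log2 0.39 ± 0.11, edgeR adjusted p = 0.0177) but did not without KO library 3 (log2 0.40, edgeR adjusted p = 0.0537) or without WT library 3 (log2 0.35, edgeR adjusted p = 0.0509). These genes share more sequence than the Trim30 genes do. In Trim5 36.3% of 50-base windows occurred in another gene (mostly Trim12c), in Trim12c 33.0% (Trim5), in Trim34a 39.8% (Trim34b) and in Trim12a 10.4% (Trim5). Trim34a also overlaps Gm47248 on the other strand over 23.5% of its exon bases, and the strand setting of the counting is not given in the sources used here.

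Trim6 and Trim34b completed the cluster without a call. Trim6, at the cluster's first end, is an interferon-induced ligase that makes unanchored ubiquitin chains for the kinase IKKε. It had 85, 42 and 42 reads in KO, against 42, 61 and 40 reads in WT, with overlapping groups. Its log2 fold change was 0.07 ± 0.28, and its 95% interval ran from -0.52 to 0.67, so a rise as large as that of Trim5 could not have been told apart from no change at this depth. Trim34b had 6, 9 and 3 reads in KO and 0, 6 and 3 reads in WT, too few for a test. Thus 8 of the 9 tested genes of this cluster rose, against 13.8% of all rows tested. All 9 are on the interferon list, so this count is part of the count for that list. In the order of the genome, the midpoints of the 4 Trim30 genes lay 144 to 270 kb from the start of Trim6, and those of the other 4 genes that rose lay 34.6 to 127 kb from it. The 95% intervals of the 4 Trim30 genes all lay above 1.36 on the log2 scale, and those of every other tested Trim gene lay below 1.08, though differences between genes were not tested.

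**Figure D4:**
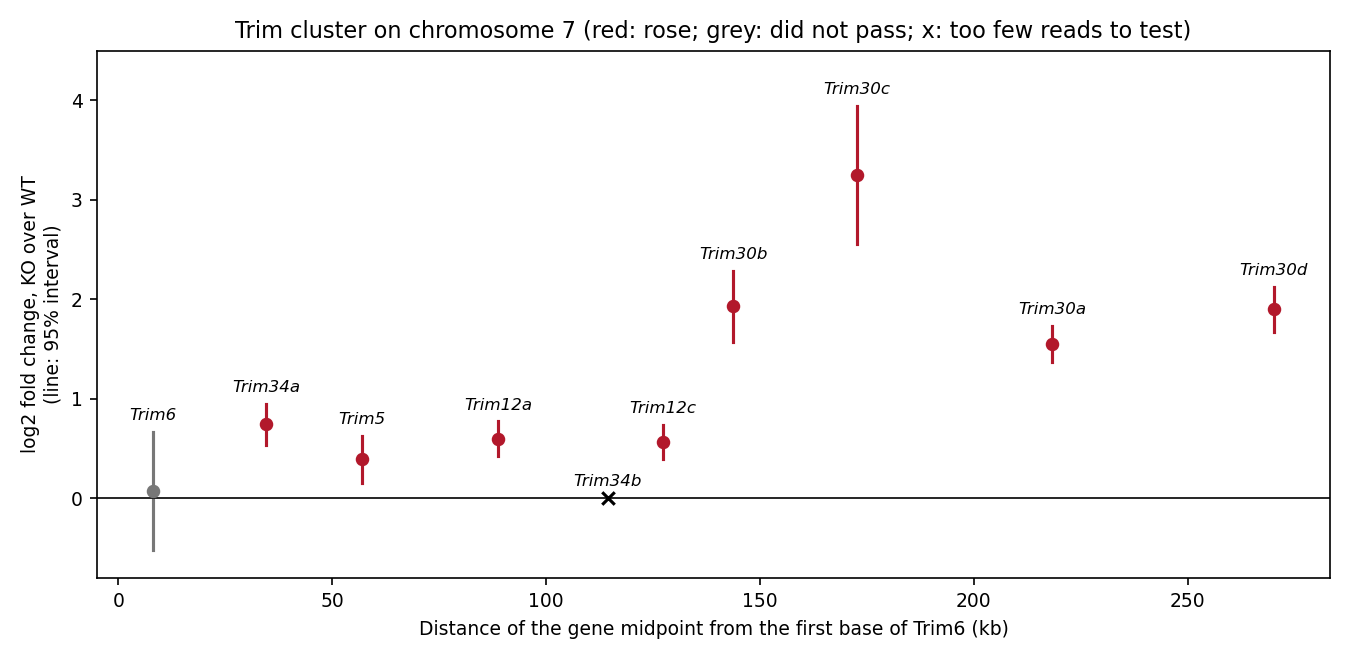
Log2 fold change, KO over WT, with 95% intervals, of the Trim genes of the chromosome 7 cluster by the distance of each gene's midpoint from the first base of Trim6. The 4 Trim30 genes, from 144 kb on, lie at 1.55 or above, and the 4 other genes that rose lie between 0.39 and 0.74; the cross for Trim34b marks its place only, since it had too few reads to test.

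Elsewhere on chromosome 7, 1 of 4 tested Trim genes was called, a share close to the 25.8% of all rows. Trim21 (chr7:102557921-102565486, minus strand), the cytosolic antibody receptor that marks antibody-coated viruses for destruction, had 27.4, 31.3 and 30.4 CPM in KO, against 16.7, 14.1 and 18.7 CPM in WT. It rose 1.80-fold with no overlap (log2 0.85 ± 0.11, edgeR adjusted p = 5.97e-05). Trim68, the next Trim gene along (chr7:102677582-102687327), had 5.74 ± 0.269 CPM in KO and 5.68 ± 0.364 CPM in WT and was flat (log2 0.01 ± 0.14). Trim3, at 105604463 to 105633571 on the far side of the cluster, and Trim28, elsewhere on the chromosome, were flat too.

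Trim genes of the nucleic acid sensing pathways rose in 5 of 6 tested cases, against 13.8% of all rows tested. All 5, Trim21 above among them, are on the interferon list and were already counted there. Trim25 (chr11:88999376-89020293), which ubiquitinates the RNA sensor RIG-I and works with the antiviral protein ZAP, had 397, 485 and 436 CPM in KO, against 280, 280 and 290 CPM in WT. The groups did not overlap, and Trim25 rose 1.55-fold (log2 0.63 ± 0.08, edgeR adjusted p = 3.80e-05). Trim56 (chr5:137105644-137116209), a ligase acting on the DNA-sensing enzyme cGAS and the adaptor STING, had 42.6, 50.2 and 45.6 CPM in KO, against 32.8, 28.0 and 36.3 CPM in WT, a 1.43-fold rise without overlap (log2 0.51 ± 0.10, edgeR adjusted p = 0.00162). Trim26 (chr17:36837134-36859398), a regulator of the transcription factor IRF3, had 59.1, 71.8 and 67.3 CPM in KO, against 51.0, 50.1 and 51.2 CPM in WT. It rose 1.30-fold without overlap (log2 0.38 ± 0.07, edgeR adjusted p = 0.00197). Trim14 (chr4:46493781-46536141), a mitochondrial adaptor that works with MAVS and lacks a RING domain, had 38.3, 42.6 and 41.8 CPM in KO, against 31.5, 30.1 and 34.8 CPM in WT. Its 1.27-fold rise (log2 0.35 ± 0.08, edgeR adjusted p = 0.00604) came without overlap, but 38.0% of its exon bases overlap genes on the other strand, Nans among them. Nans had 179 ± 8.83 CPM in KO and 163 ± 6.58 CPM in WT and was not called (edgeR adjusted p = 0.121). Trim65, which ubiquitinates the RNA sensor MDA5 and is not on the interferon list, was flat at 17.8 ± 0.526 CPM in KO and 18.2 ± 0.673 CPM in WT (log2 -0.03 ± 0.09).

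The remaining interferon-list genes, Trim38 and Trim69, had too few reads for a test. Trim38, which in human cells limits Toll-like receptor signalling, had 0, 0 and 1 reads in KO and 4, 2 and 3 reads in WT. Trim69 had 7, 1 and 2 reads in KO and 0, 2 and 2 reads in WT. In all, 24 of the 65 members were not tested, with 1 to 55 reads each over the 6 libraries and a median of 9.5. They include germline, muscle and brain genes such as Trim43a, Trim54, Trim72 and Trim9.

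A small rise outside the interferon list was found in 2 genes. Trim27, a ligase of endosomal recycling and a brake on innate signalling, had 41.9 ± 1.86 CPM in KO and 35 ± 0.643 CPM in WT (log2 0.26 ± 0.07, edgeR adjusted p = 0.0143). Trim11, which takes part in clearing misfolded proteins, had 50.1 ± 0.795 CPM in KO and 42.7 ± 0.628 CPM in WT (log2 0.23 ± 0.06, edgeR adjusted p = 0.0148). Neither gene's groups overlapped. Both calls lay near the threshold and were lost with some libraries left out, while the fold changes stayed close to these values. Trim27 did not pass without KO library 3 (log2 0.24, edgeR adjusted p = 0.0765) or WT library 1 (log2 0.26, edgeR adjusted p = 0.0553). Trim11 did not pass without KO library 3 (log2 0.24, edgeR adjusted p = 0.0504), WT library 1 (log2 0.23, edgeR adjusted p = 0.0554) or WT library 2 (log2 0.22, edgeR adjusted p = 0.0584). Without both WT library 2 and KO library 1, Trim27 (log2 0.24, edgeR adjusted p = 0.0681) and Trim11 (log2 0.21, edgeR adjusted p = 0.0805) did not pass either.

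The 4 Trim genes that fell did so by less than 1.5-fold. Trim47 (chr11:116105752-116127210) had 16.7, 17 and 18.6 CPM in KO, against 22.5, 25.3 and 22 CPM in WT, with no overlap (log2 -0.42 ± 0.09, edgeR adjusted p = 0.00500). It shares 8.23% of its exon bases with its neighbour Trim65, which was flat. Trim24, a chromatin corepressor that binds modified histones and nuclear receptors, had 37.0 ± 2.79 CPM in KO and 43.7 ± 1.39 CPM in WT (log2 -0.24 ± 0.07, edgeR adjusted p = 0.0312). Trim13, a ligase anchored in the endoplasmic reticulum, had 8.95 ± 1.06 CPM in KO and 12.5 ± 2.22 CPM in WT (log2 -0.48 ± 0.15, edgeR adjusted p = 0.0271), and its groups overlapped. Trim45 had 3.98 ± 0.530 CPM in KO and 5.65 ± 0.824 CPM in WT (log2 -0.51 ± 0.17, edgeR adjusted p = 0.0460), without overlap. Of the 4, only Trim47 kept its call with each library left out. Without KO library 2, KO library 3, WT library 1 or WT library 2, Trim24, Trim13 and Trim45 no longer passed and 1 Trim gene fell in each case. Their log2 fold changes in those fits ran from -0.24 to -0.19 for Trim24, from -0.46 to -0.36 for Trim13 and from -0.51 to -0.41 for Trim45. Trim45 also did not pass by DESeq2 (adjusted p = 0.0850), by limma-voom (adjusted p = 0.0524), without the low-count filter (edgeR adjusted p = 0.0687) or with library size in place of TMM (edgeR adjusted p = 0.0595). With library size alone Trim24 did not pass either (log2 -0.20, edgeR adjusted p = 0.0697). In Trim13 14.2% of the 50-base windows occurred in another gene.

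The 19 flat genes spanned the family's other roles. Among chromatin corepressors Trim28, which silences endogenous retroviruses, had 121 ± 1.39 CPM in KO and 113 ± 0.502 CPM in WT (log2 0.10 ± 0.05, 95% interval -0.02 to 0.21), and Trim33 was flat as well. Trim28 gave no overlap between groups, with KO above WT, but its edgeR adjusted p was 0.202. In NF-κB signalling, trafficking and autophagy Trim8, Trim44, Trim59, Trim23 and Trim16 were flat. Trim16, which takes part in the clearance of damaged membranes, had a log2 fold change of -0.27 with a 95% interval of -0.48 to -0.05, which excludes 0, and an edgeR adjusted p of 0.0640. Trim37, a ligase of peroxisomes and centrioles, was similar at -0.19, with an edgeR adjusted p of 0.127. Trim3 and Trim32, which carry NHL repeats, were flat, as were Trim36, a microtubule-associated member, and Trim7, Trim29, Trim35, Trim39, Trim41, Trim62, Trim65 and Trim68. Of these 19, Trim41 passed without KO library 1 (log2 0.19, edgeR adjusted p = 0.0313). Trim35, which in mice targets IRF7 for degradation, had 194 ± 5.36 CPM in KO and 186 ± 3.75 CPM in WT (log2 0.06 ± 0.06, 95% interval -0.07 to 0.18). Outside the interferon list 2 genes were neither called nor flat. Trim46, of the axon cytoskeleton, had a log2 fold change of 0.20 ± 0.20. Trim2, an NHL-repeat ligase of neurons, had 2.80, 3.61 and 2.67 CPM in KO, against 3.84, 3.82 and 4.84 CPM in WT; its KO libraries all lay below its WT libraries, yet it did not pass (log2 -0.46 ± 0.19, edgeR adjusted p = 0.101).

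Levels can be compared between genes only roughly, as CPM per kb of all annotated exons merged in GENCODE M21. The annotation used for the counts is not given in the sources used here, and reads shared between copies may shift the levels. Trim30b had more CPM than Trim30c in KO (8.91 against 6.56) but a lower level per kb, with 7527 exon bases against 1716. Trim25 was the highest of the 41 tested Trim genes in both genotypes, at 76.4 ± 7.59 CPM per kb in KO and 49.2 ± 1.04 CPM per kb in WT. Trim35 was next in both. Trim30a ranked 3 in KO at 36.5 ± 3.92 CPM per kb and 6 in WT at 12.5 ± 1.24 CPM per kb. Trim30d ranked 7 in KO at 16.3 ± 2.21 CPM per kb and 20 in WT at 4.37 ± 0.419 CPM per kb. Trim30c ranked 22 in KO at 3.82 ± 1.26 CPM per kb and 39 in WT at 0.402 ± 0.173 CPM per kb. Trim30b stayed near the bottom in both genotypes despite its rise, at 1.18 ± 0.0376 CPM per kb in KO and 0.309 ± 0.0599 CPM per kb in WT.

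**Figure D5:**
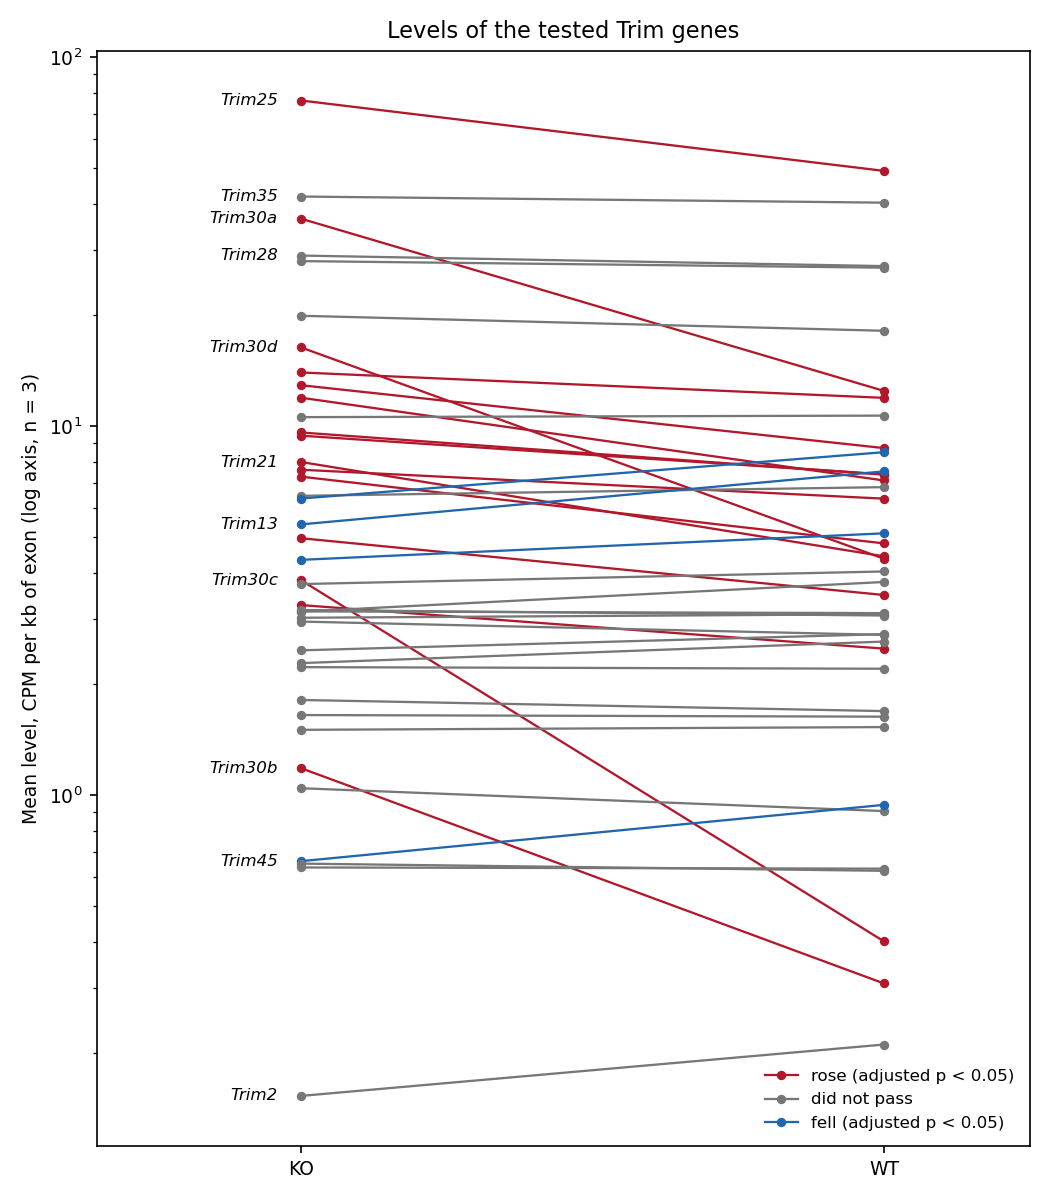
Mean level of each of the 41 tested Trim genes in CPM per kb of exon, KO left and WT right, on a log axis; each line joins the 2 means of 1 gene (n = 3 each). The lines of Trim30a, Trim30d, Trim30c and Trim30b are the steepest, and most grey lines, of genes that did not pass, run nearly level.

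Summed over the family, nearly all of the net difference in reads lay in the interferon list. The 17 interferon-list genes in the table summed to 918, 1073 and 968 CPM in KO libraries 1 to 3, against 584, 552 and 596 CPM in WT libraries 1 to 3, a ratio of 1.71. The other 48 Trim genes summed to 931.5 ± 6.32 CPM in KO and 920.5 ± 13.4 CPM in WT, a ratio of 1.01. In that sum, differences such as 7.69 CPM in Trim28 and -6.66 CPM in Trim24 cancel in part. On this scale, which grows with transcript length, Trim25 made up 38.2% of the list's difference of 409 CPM and Trim30a 24.2%. The sum of 30 interferon-stimulated genes, a list written with earlier results of these data known and so no independent evidence of its direction, was 3878, 4896 and 4021 CPM in KO, against 1046, 889 and 932 CPM in WT, a ratio of 4.46.

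Set beside the interferon-stimulated genes, the interferon-list Trim genes had the lower median fold change, a difference that was not tested. All 30 interferon-stimulated genes rose (29 without KO library 2 or without WT library 2), with a median log2 fold change of 2.29 (4.87-fold) and a range of 0.30 to 4.55. Of the 30, 23 had a lower fold change than Trim30c, 10 a lower one than Trim30b or Trim30d, 8 than Trim30a and 1 than Trim21. Among KO libraries, library 2 was the highest in 28 of the 30 interferon-stimulated genes and in 10 of the 13 interferon-list Trim genes that rose, against 9 of the 27 tested Trim genes off the list and 35.3% of all rows. Among WT libraries the sets differed, with library 1 the highest in 25 of 30 interferon-stimulated genes but in 4 of the 13 Trim genes, where library 3 was the highest in 8. Reads of interferon genes themselves, looked at after their values were seen, were few. Ifnb1, the interferon β gene, had 4, 11 and 12 reads in KO and 1, 0 and 0 reads in WT, and 6 Ifna rows together had 2, 3 and 5 reads in KO and 0, 3 and 0 reads in WT, all below the filter for a test.

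Of 4 family members that carry other names, 2 rose (50%, against 13.8% of all rows tested) and 2 did not pass. Pml (TRIM19), the organiser of nuclear bodies and an interferon-induced gene, had 76.4 ± 14.1 CPM in KO and 33.9 ± 3.53 CPM in WT, a 2.25-fold rise (log2 1.17 ± 0.12, edgeR adjusted p = 6.96e-06). Mefv (TRIM20), which encodes the inflammasome protein pyrin, had 8.93 ± 0.558 CPM in KO and 4.04 ± 0.665 CPM in WT, a 2.20-fold rise (log2 1.14 ± 0.15, edgeR adjusted p = 0.000117). The microtubule-binding ligases Mid1 (TRIM18) and Mid2 (TRIM1) were not called, at log2 0.48 ± 0.36 and -0.17 ± 0.26, and their intervals were too wide for either to be flat.

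Of 12 tested ubiquitin-conjugating enzymes that can serve RING ligases, 10 were flat, among them Ube2n, Ube2k and the Ube2d genes. The other 2 were called (16.7%), a smaller share than the 25.8% of all rows. Ube2l6, which passes the ubiquitin-like protein ISG15 to its targets, rose 1.67-fold with 174 ± 7.24 CPM in KO and 104 ± 5.19 CPM in WT (log2 0.74 ± 0.06, edgeR adjusted p = 1.39e-06). Ube2e2 fell by 0.55 ± 0.15 on the log2 scale (edgeR adjusted p = 0.0160), but not without WT library 2 (log2 -0.54, edgeR adjusted p = 0.0556) or WT library 3 (log2 -0.47, edgeR adjusted p = 0.0587). Of 16 sensors, adaptors and kinases that TRIM proteins act on, 9 rose (56.2%, against 13.8% of all rows), 1 fell (6.25%, against 12%) and 6 were flat; 7 rose without KO library 2, KO library 3, WT library 2 or WT library 3, and 8 without WT library 1. Irf7, the transcription factor that amplifies interferon production, rose most, with 464 ± 37.3 CPM in KO and 23.8 ± 6.36 CPM in WT (log2 4.28 ± 0.15, edgeR adjusted p = 3.63e-10). Ddx58, which encodes RIG-I, the partner of Trim25, rose 4.53-fold with 114 ± 20.2 CPM in KO and 25.2 ± 3.62 CPM in WT (edgeR adjusted p = 2.99e-08). Ifih1, which encodes MDA5, rose 2.58-fold (edgeR adjusted p = 1.04e-06) and the kinase gene Ikbke, whose product works with Trim6, rose 1.61-fold (edgeR adjusted p = 1.18e-05). Irf7, Ddx58 and Ifih1 are also among the 30 interferon-stimulated genes and were already counted there. Ikbkg, the gene for the NF-κB adaptor NEMO, was the 1 that fell, at log2 -0.30 ± 0.06 (edgeR adjusted p = 0.00154), and was named after its value was seen. Tab2 and Tab3, the adaptors that Trim30a acts on, were flat at log2 0.04 ± 0.07 and 0.06 ± 0.12.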

How the data were processed

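RNA of 6 libraries (KO and WT, 3 each) was compared from 1 table, deposited by the authors, of raw read counts by gene symbol not normalized. The submitters' processing notes name the build mm10 and the tools TopHat2, HISAT2, HISAT, SAMtools, HTSeq and DESeq2; aligner, annotation and strand setting: not given in the sources used here. For 23 symbols repeated over 47 rows, the most abundant row kept the name. Rows passing filterByExpr (minimum count 10) were scaled with TMM factors and tested for genotype with the quasi-likelihood test of edgeR 4.0.16 (R 4.3.3), adjusted by Benjamini-Hochberg over all rows and called under 0.05. CPM are edgeR's counts relative to TMM-scaled library size, given as mean ± SD. Log2 fold changes are KO over WT, ± SE; the common coefficient of variation was 8.48%. Flat means not called with a 95% interval within 1.5-fold. Alternatives included DESeq2 1.42.0 and limma-voom (limma 3.58.1). The procedure was tested on simulated counts, drawn independently for each library, so traits particular to single libraries were not covered. No replicate pair agreed within counting noise. The rule named Epas1, every tested member, up to 4 called genes of each other list by lowest p, and every gene of lists under 6. Members and lists were chosen with earlier results of these data known.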

Additional observations from a re-analysis of the deposited data

How the results depend on the processing

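Of the 15 rises of Trim genes, all were kept under DESeq2 size factors, library size only, no low-count filter, a minimum of 10 counts in each library of either genotype, the DESeq2 test and limma-voom, and 12 to 15 of them with 1 library left out. Calls of falling Trim genes were less stable, at 2 under library size only (where the median row moved up by 0.033 on the log2 scale and 62.3% of calls were rises, against 53.5% with TMM) and 1 to 4 with 1 library left out; falling ubiquitin-conjugating enzymes numbered 0 to 2. Over all rows, 1182 to 1992 rose and 945 to 1622 fell with 1 library left out, the lowest without KO library 3; without WT library 1 they were 1336 and 1027. Trim41 passed without KO library 1 (0.19). Same-numbered libraries had deviations correlated at 0.01, -0.11 and 0.08, and KO library 1 correlated best with WT library 2 (0.18), so the numbers were not taken to pair them; with the replicate number as a block 15 Trim genes rose and 3 fell (Trim45 at -0.50 lost its call), and 1741 rows rose and 1506 fell. Reversals of sign touched uncalled genes only, and the cause was not tested: Trim29 at -0.00275 by limma-voom; Trim44 at 0.0191, Trim36 at 0.00857 and Trim65 at 0.00278 under library size only; and, without WT 2 and KO 1, Trim7 at -0.0373, Trim6 at -0.0783, Trim32 at -0.0523, Trim39 at -0.00887, Trim29 at -0.0510, Trim36 at 0.0761 and Mid2 at 0.120. With 1 library left out, log2 values ran from -0.305 to 0.304 for Trim6, -0.0171 to 0.105 for Trim32, -0.0555 to 0.0885 for Trim62, -0.0213 to 0.0603 for Trim39, -0.0130 to 0.0672 for Trim68, -0.0741 to 0.160 for Trim29, -0.0607 to 0.0345 for Trim44, -0.164 to 0.0846 for Trim36, -0.146 to 0.00450 for Trim3 and -0.320 to 0.150 for Mid2. Depth left 24 Trim genes untested.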
